A study of Homo sapiens with 6 samples.

Results

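The sirtuins SIRT1 to SIRT7 and the NAD supply enzymes NAMPT, NMNAT1 and NADK were followed in RNA-seq of cells treated with polydatin (PD). These 10 genes were chosen by name, as the sirtuin family and 3 main enzymes of NAD supply, and all 10 had values among the 28563 genes of the deposited table. PD is the glucoside of resveratrol, a plant compound best known in this field for work on SIRT1. The cells were labelled HepG2, a human liver cancer cell line, and received for 24 h either PD, at 336 µM according to the labels, or DMSO, the solvent of PD. The study's methods give a somewhat lower dose. Each treatment had 3 dishes with 1 library each. The dishes were replated together and then divided at random, so p-values measure the spread between dishes of a single experiment. Means are given ± SD over the 3 dishes of a group (n = 3).

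Sirtuins remove acetyl or other acyl groups from proteins and use up NAD+ in each reaction, which sets them apart from the zinc-dependent histone deacetylases. SIRT1, SIRT6 and SIRT7 work mainly in the nucleus, SIRT2 mainly in the cytosol, and SIRT3, SIRT4 and SIRT5 in mitochondria. Cells replace NAD+ largely by salvage of nicotinamide, in which NAMPT makes nicotinamide mononucleotide and an NMNAT enzyme turns it into NAD+, while NAD kinase adds a phosphate to give NADP+. In liver, sirtuins act on enzymes of the urea cycle, the citric acid cycle and fat oxidation.

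Levels are given as FPKM, the fragments of a gene scaled by its length and by the fragment total of the library. The depth was similar in both groups, with 16763318 to 17274927 fragments in the DMSO libraries and 16308476 to 18071632 in the PD libraries. Of 20 genes that define hepatocytes, 10 had values and the other 10, ALB and AFP among them, were not analysed here. These markers were at or near 0, and RBP4, the plasma retinol carrier, was the single one of these to reach 0.5 FPKM, with at most 1.73 FPKM in any library. HNF4A, the transcription factor that defines hepatocytes, had at most 0.106 FPKM, and SERPINA1 and TF were at 0 in all 3 DMSO libraries. The summed FPKM of the list was between 0.496 and 0.690 in DMSO and between 1.41 and 1.82 in PD. Its part in the results below was not tested. The listed markers with values thus do not bear out the label HepG2 as that of a liver cell line. The identity of the cells was not tested. CPS1, a urea cycle enzyme typical of hepatocytes, had a mean of 225 FPKM in DMSO, in contrast to the listed markers with values. It was picked from outside the list and does not offset the list. Summed markers were 4.52 to 5.40 FPKM for mesenchymal cells, mostly COL1A1, at most 0.633 FPKM for blood cells and at most 0.0801 FPKM for endothelial cells over the 6 libraries.

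PD moved most of the 10 genes, and not in 1 direction. In a limma fit over the 14400 genes that averaged 0.5 FPKM or more, 6 of the 10 genes rose (SIRT2, SIRT3, SIRT4, SIRT5, SIRT7 and NMNAT1), 3 fell (SIRT1, NAMPT and NADK) and SIRT6 did not pass an adjusted p of 0.05. SIRT4 entered the fit through its PD libraries alone, so its rise was built in and lends no support. The counts and the median given here for the 10 genes still include SIRT4. In such bulk RNA, fewer cells of a type and less RNA per cell cannot be told apart. Changes were frequent across the transcriptome, since 58.1% of all tested genes passed this threshold, 31.9% as higher and 26.2% as lower in PD. With upper quartile scaling, 44.8% of the called genes were higher, against 54.8% with the FPKM as deposited, while the counts of 6 and 3 among the 10 genes were the same under both. Without PD replicate 3, NADK was the 1 gene of the 10 called lower. SIRT2 was the only one of the 10 genes to be a DEG, which required a change of at least 2-fold on the log2(FPKM + 1) scale as well, whereas 3.61% of all tested genes were DEGs, 2.04% higher and 1.57% lower. Low FPKM are damped on this scale, and with a pseudocount of 0.1 or with voom on fragments SIRT4 and NMNAT1 were DEGs as well, under which settings 8.67% and 11.5% of all tested genes were DEGs. The median log2 fold change of the 10 genes was 0.34, and that of all tested genes was 0.01. In 9 of the 10 genes the PD and DMSO libraries did not overlap (6 higher and 3 lower in PD). The same held for 65.4% of all tested genes, 35.6% higher and 29.9% lower.

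**Figure D1:**
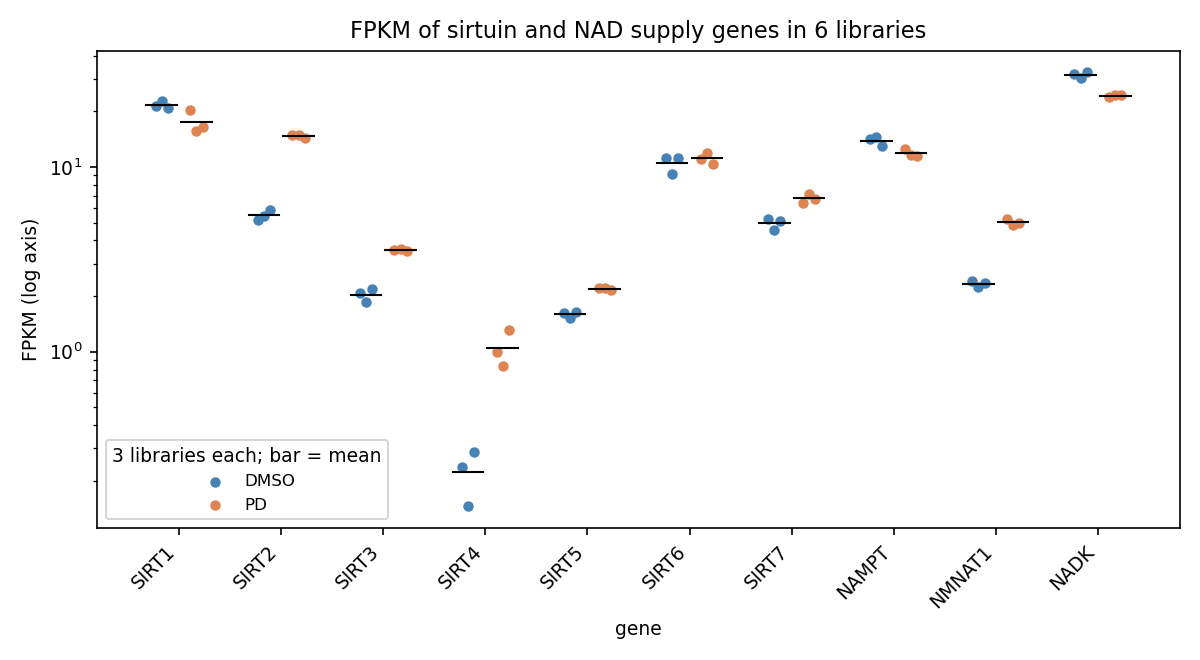
FPKM (log axis) of the 10 genes in the 3 DMSO (blue) and 3 PD (orange) libraries, with each point 1 library and each bar the mean of 3. The groups lie apart in every gene but SIRT6, with PD above DMSO in SIRT2, SIRT3, SIRT4, SIRT5, SIRT7 and NMNAT1 and below it in SIRT1, NAMPT and NADK.

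Upstream sequences are shown for the sirtuins with the highest and the lowest FPKM in DMSO, SIRT1 and SIRT4. They are the 250 bases before the RefSeq transcription start, from 5′ to 3′ on the strand of the gene. SIRT1 lies on chromosome 10 of GRCh38.p14, with this window at chr10:67884406-67884655 on the plus strand, and SIRT4 on chromosome 12, at chr12:120291939-120292188 on the plus strand. Capitals mark matches on either strand to 7 motifs, which were the E-box CACGTG, the GC box GGGCGG, the NRF1 element, the CRE TGACGTCA, the ARE core TGACNNNGC, the FOXO core TGTTTAC and CCAAT.
SIRT1: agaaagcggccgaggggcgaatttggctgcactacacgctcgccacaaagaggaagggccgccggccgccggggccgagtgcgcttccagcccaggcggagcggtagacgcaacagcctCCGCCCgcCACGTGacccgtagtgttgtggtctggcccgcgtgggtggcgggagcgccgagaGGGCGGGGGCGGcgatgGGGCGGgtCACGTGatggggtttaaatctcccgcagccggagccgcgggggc
SIRT4: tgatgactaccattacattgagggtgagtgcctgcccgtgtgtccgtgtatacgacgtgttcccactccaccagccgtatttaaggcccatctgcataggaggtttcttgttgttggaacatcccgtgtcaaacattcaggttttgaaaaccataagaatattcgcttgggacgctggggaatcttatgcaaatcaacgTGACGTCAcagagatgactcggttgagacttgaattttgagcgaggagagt
The SIRT1 window held 2 E-boxes and 4 GC boxes, with a GC content of 72.0%. An E-box was present in 6.49% of the 27305 promoter windows searched and a GC box in 42.3%, and among the 9 windows matched to the 10 genes (all but SIRT7) that of SIRT1 alone had an E-box. The SIRT4 window had a GC content of 47.2%, against a median of 58.0% over all windows, and held 1 CRE, which 1.77% of all windows had. The SIRT4 window ends at 120292188, whereas SIRT4 starts at 120302316 in GENCODE release 44. It is thus not next to that start, unlike the SIRT1 window, and may not be the promoter that these cells used. The GC box was found in 6 of the 9 windows (SIRT1, SIRT5, SIRT6, NAMPT, NMNAT1 and NADK), which include genes that rose, fell and did not pass the test. The windows of SIRT2, NMNAT1, SIRT3, SIRT5, SIRT6, NAMPT and NADK reached into annotated exons and are not printed. These matches describe the sequence and were not tested as binding sites.

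The nuclear sirtuins went 3 ways. SIRT1, a deacetylase of histones, p53 and FOXO factors, is gene ENSG00000096717 on chromosome 10 of hg38 from 67884656 to 67918390. SIRT1 had 21.5, 22.7 and 20.8 FPKM in DMSO replicates 1, 2 and 3 and 20.3, 15.7 and 16.5 FPKM in PD replicates 1, 2 and 3. All PD libraries were below all DMSO libraries, but PD replicate 1 was only just below the lowest of them. The mean fell from 21.7 ± 0.943 to 17.5 ± 2.46 FPKM, which on the log2 scale is -0.30 (SE 0.09, adjusted p = 0.022, limma). This call was not stable, because the adjusted p was 0.052, 0.067, 0.069 and 0.073 (limma) without DMSO replicate 1, DMSO replicate 2, PD replicate 2 or PD replicate 3, respectively. It was also lost when genes of low FPKM were kept in the fit (0.065). Without PD replicate 1 the fall was larger, at -0.41, with an adjusted p of 0.0011 (limma).

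SIRT6, which acts on histone H3 at telomeres and at glycolytic genes, is ENSG00000077463 on chromosome 19 from 4174109 to 4182566. It had 11.2, 9.16 and 11.2 FPKM in the DMSO libraries and 11.1, 11.9 and 10.4 FPKM in the PD libraries, and the groups overlapped. Its log2 fold change was 0.08 with an adjusted p of 0.45 (limma), and the 95% confidence interval of -0.12 to 0.28 does not reach a 2-fold change either way. SIRT7, a nucleolar deacetylase linked to ribosomal RNA transcription, is ENSG00000187531 on chromosome 17 from 81911939 to 81921323. SIRT7 had 5.20, 4.56 and 5.09 FPKM in DMSO and 6.36, 7.17 and 6.71 FPKM in PD, with every PD library higher. Its mean rose from 4.95 ± 0.346 to 6.75 ± 0.406 FPKM, that is a log2 fold change of 0.38 (SE 0.06, adjusted p = 0.0018, limma). Of the exon bases of SIRT7, 1.71% are shared with MAFG on the same strand, and MAFG had a log2 fold change of -0.09 (adjusted p = 0.083, limma), and -0.17 (adjusted p = 0.0095, limma) with upper quartile scaling.

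SIRT2, the cytosolic sirtuin known as a deacetylase of tubulin, showed the largest change of the 10 genes on the log2(FPKM + 1) scale. SIRT2 is ENSG00000068903 on chromosome 19 from 38878555 to 38899862. It had 5.16, 5.44 and 5.82 FPKM in the DMSO libraries and 14.8, 14.9 and 14.3 FPKM in the PD libraries. The groups were far apart, with 555 to 620 fragments behind the DMSO values and 1449 to 1667 behind the PD values. The mean rose from 5.48 ± 0.332 to 14.7 ± 0.338 FPKM, which is 2.68-fold. On the log2(FPKM + 1) scale SIRT2 changed by 1.28 (SE 0.05, adjusted p = 3.4e-06, limma), and the change was 1.20 with upper quartile scaling and 1.42 with voom on fragments. Exons of SIRT2 and NFKBIB, which encodes an inhibitor of NF-kB, overlap by 40 bases on opposite strands. NFKBIB had 34.0 FPKM in DMSO and 31.2 in PD and did not pass the test (adjusted p = 0.056, limma), except as lower with upper quartile scaling (0.0093), with median-of-ratios scaling (0.040) or without DMSO replicate 1 (0.021).

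Among the 4839 genes that averaged 10 FPKM or more, the profiles nearest to that of SIRT2 over the 6 libraries were those of PHLDA2, NEU1 and MANF. The measure was the root mean square difference of log2(FPKM + 1) after the DMSO mean of each gene was subtracted, and it was 0.03, 0.05 and 0.05. PHLDA2 is an imprinted growth regulator, NEU1 is the lysosomal sialidase, and MANF is a secreted protein of the ER stress response. Their log2 fold changes were 1.25, 1.32 and 1.31, against 1.28 for SIRT2. With 2 groups of 3 libraries, such a match reflects mainly the size of the change.

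Of the mitochondrial sirtuins, SIRT3 and SIRT5 rose from low levels, and SIRT4 is given as a description. SIRT3, the main deacetylase of mitochondrial enzymes, is ENSG00000142082 on chromosome 11 from 215030 to 236931. It had 2.07, 1.86 and 2.18 FPKM in DMSO and 3.55, 3.59 and 3.50 FPKM in PD. Its 3 PD libraries were close to each other and well above DMSO, and the mean rose from 2.04 ± 0.164 to 3.55 ± 0.0430 FPKM. The log2 fold change of SIRT3 was 0.58 (SE 0.06, adjusted p = 0.0002, limma).

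SIRT5, which removes succinyl and malonyl groups, is ENSG00000124523 on chromosome 6 from 13574227 to 13615158. SIRT5 had 1.61, 1.53 and 1.63 FPKM in DMSO and 2.20, 2.20 and 2.16 FPKM in PD. The groups did not overlap, and its mean rose from 1.59 ± 0.0543 to 2.19 ± 0.0252 FPKM, that is a log2 fold change of 0.30 (SE 0.06, adjusted p = 0.005, limma), and 0.46 with voom on fragments. An antisense lncRNA shares 9.37% of the 11295 exon bases of SIRT5 in GENCODE release 44. The FPKM rest on 6507 bases, so the shared part of the counted bases is not known. Neither the library protocol nor the counting is described as keeping strand, so reads from the shared bases cannot be assigned.

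SIRT4, a mitochondrial sirtuin known to restrain glutamate dehydrogenase, is ENSG00000089163 on chromosome 12 from 120302316 to 120313249. SIRT4 had 0.237, 0.146 and 0.287 FPKM in DMSO and 0.996, 0.840 and 1.30 FPKM in PD. SIRT4 averaged over 0.5 FPKM across the 6 libraries only because of PD, so a rise was built into its being tested. The values rest on few reads, namely 5, 3 and 6 fragments in the DMSO libraries and 22, 18 and 26 in the PD libraries. The groups did not overlap, and the log2 fold change on the FPKM + 1 scale was 0.74 (SE 0.12, adjusted p = 0.0014, limma). From the summed 14 and 66 fragments the ratio of PD to DMSO was 4.65, with an exact 95% interval of 2.58 to 8.96 that covers counting error only. On scales that damp low values less, the log2 fold change of SIRT4 was 1.83 (pseudocount of 0.1) and 2.12 (voom), so the size of its difference depended on the scale.

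**Figure D2:**
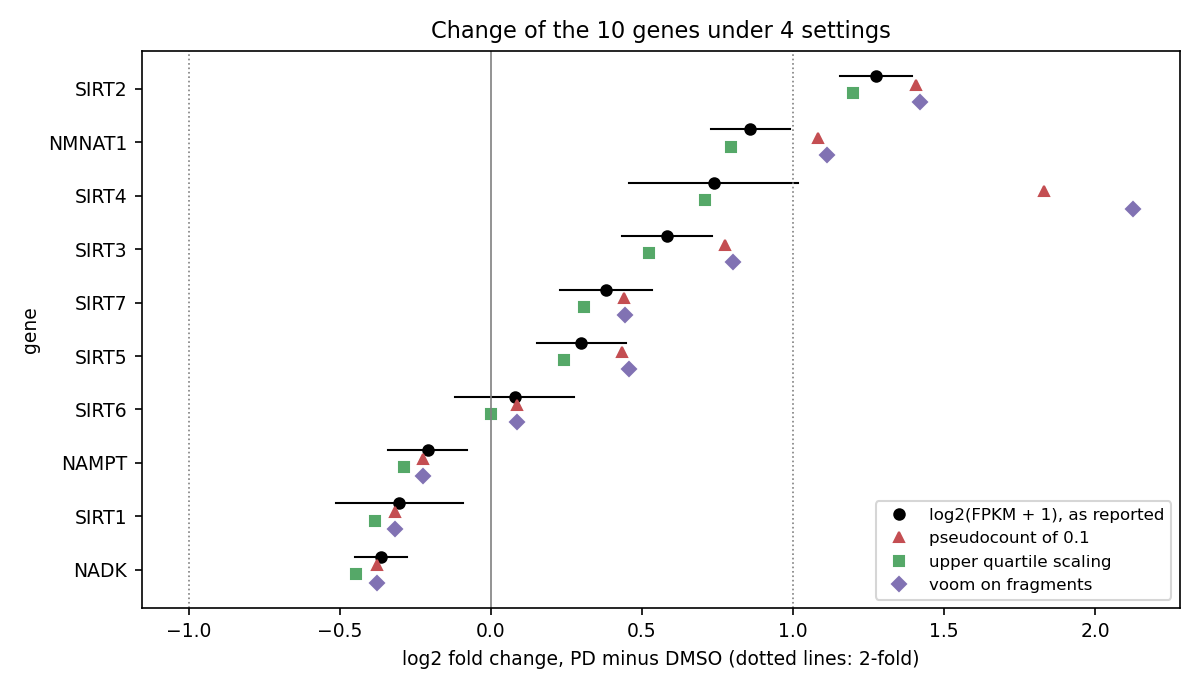
Log2 fold change (PD minus DMSO) of each gene as reported (black circles, with 95% confidence intervals), with a pseudocount of 0.1 (red triangles), with upper quartile scaling (green squares) and with voom on fragments (purple diamonds). SIRT2 is beyond the dotted 2-fold line under all 4 settings, SIRT4 and NMNAT1 under 2 of them, and SIRT6 stays near 0.

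The make-up of the sirtuin transcripts within a library does not depend on how libraries are scaled, although it does depend on the gene lengths behind FPKM, which ranged from 1222 bases for SIRT4 to 6507 bases for SIRT5 among the sirtuins. SIRT1 held 45.8%, 50.0% and 44.3% of the summed sirtuin FPKM in the DMSO libraries and 34.2%, 27.8% and 30.0% in the PD libraries. The share of SIRT2 was 11.0%, 12.0% and 12.4% in DMSO and 25.0%, 26.5% and 26.1% in PD. SIRT1 was thus first in every library, while SIRT2 moved from behind SIRT6 to the second place. SIRT2 had 0.253 ± 0.0227 of the FPKM of SIRT1 in DMSO and 0.850 ± 0.111 in PD. SIRT3, SIRT4 and SIRT5 together made up 7.79 to 8.71% of sirtuin FPKM in DMSO and 11.4 to 12.7% in PD. This sum includes SIRT4, which rests on few fragments and had a mean share of 0.479% in DMSO and 1.85% in PD. The summed FPKM of the 7 sirtuins was 46.5 ± 0.928 in DMSO and 56.8 ± 2.28 in PD.

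**Figure D3:**
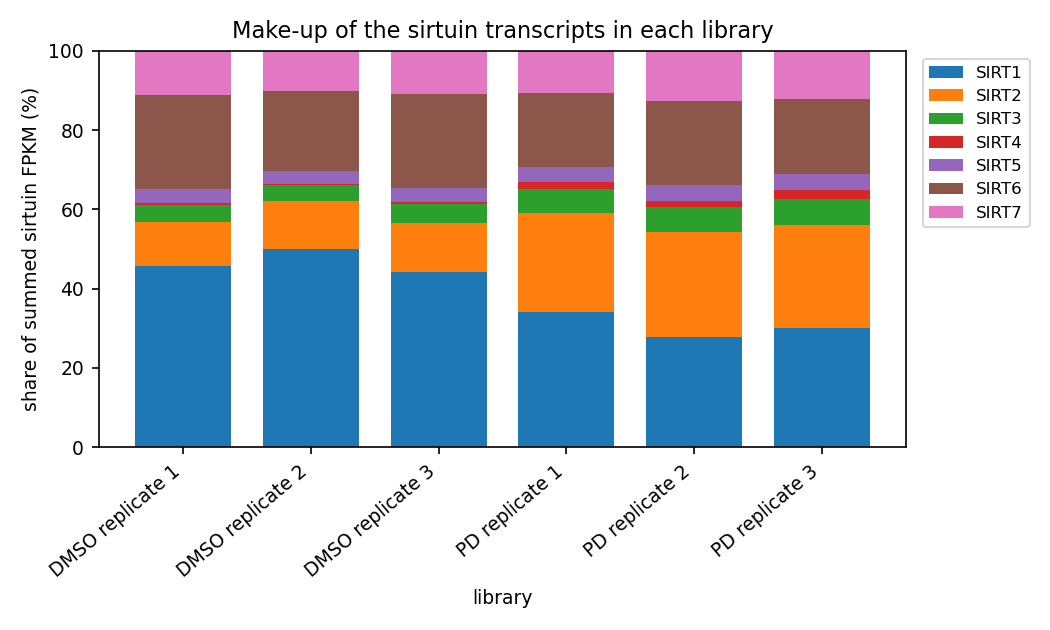
Share of each sirtuin in the summed FPKM of the 7 sirtuins (%), with 1 bar for each library. The SIRT1 share is 44.3 to 50.0% in DMSO and 27.8 to 34.2% in PD. SIRT2 has a share of 11.0 to 12.4% in DMSO and 25.0 to 26.5% in PD.

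The 3 enzymes of NAD supply did not go in 1 direction. NAMPT, the rate-limiting enzyme of nicotinamide salvage, is ENSG00000105835 on chromosome 7 from 106248298 to 106285966. It had 14.1, 14.5 and 13.0 FPKM in DMSO and 12.6, 11.7 and 11.4 FPKM in PD, with the groups apart by a small margin. NAMPT fell from 13.9 ± 0.770 to 11.9 ± 0.611 FPKM, that is a log2 fold change of -0.21 (SE 0.06, adjusted p = 0.014, limma), and without PD replicate 3 the adjusted p was 0.052 (limma).

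NMNAT1, the nuclear enzyme that completes NAD+, is ENSG00000173614 on chromosome 1 from 9943428 to 9985501. NMNAT1 had 2.40, 2.23 and 2.35 FPKM in DMSO and 5.22, 4.86 and 5.00 FPKM in PD, so that every PD library was far above DMSO. The mean rose from 2.32 ± 0.0885 to 5.03 ± 0.181 FPKM, which is 2.16-fold, with a log2 fold change of 0.86 (SE 0.06, adjusted p = 1.8e-05, limma) that stayed under the 2-fold threshold on the FPKM + 1 scale. A lncRNA on the same strand shares 9.46% of the exon bases of NMNAT1, so a part of its reads is uncertain. Relative to NAMPT in the same library, the FPKM of NMNAT1 was 0.154 to 0.180 in DMSO and 0.416 to 0.439 in PD.

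NADK, the cytosolic NAD kinase, is ENSG00000008130 on chromosome 1 from 1751232 to 1780457 and had the highest FPKM of the 10 genes in both groups. Its values were 31.9, 30.4 and 32.4 FPKM in DMSO and 23.9, 24.6 and 24.4 FPKM in PD, with no overlap. NADK fell from 31.6 ± 1.08 to 24.3 ± 0.332 FPKM, that is a log2 fold change of -0.36 (SE 0.04, adjusted p = 0.00013, limma). NADK2, the mitochondrial NAD kinase, went the other way, from 13.6 ± 0.812 to 17.5 ± 0.766 FPKM, that is a log2 fold change of 0.34 (adjusted p = 0.0012, limma). The ratio of NADK2 to NADK within a library was 0.392 to 0.456 in DMSO and 0.696 to 0.770 in PD.

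In DMSO the order of FPKM was NADK, SIRT1, NAMPT, SIRT6, SIRT2, SIRT7, NMNAT1, SIRT3, SIRT5 and SIRT4. SIRT2 and SIRT7 overlapped in their DMSO values, and all other neighbours in this order were apart. In PD the order differed in the place of SIRT2, which stood between SIRT1 and NAMPT. There NAMPT and SIRT6 overlapped, and the other neighbours did not. Among the tested genes, NADK stood above 89.5% in DMSO and 85.4% in PD, and SIRT2 above 50.9% in DMSO and 75.7% in PD.

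Other genes of NAD biology and of resveratrol were described from 7 lists, by counts beside the background of 58.1% of all tested genes called. Of 15 further enzymes of NAD+ synthesis, 5 were tested and 3 rose. QPRT, which enters the route from tryptophan, rose from 12.1 ± 0.343 to 21.1 ± 0.570 FPKM, with a log2 fold change of 0.75 (adjusted p = 8.4e-06, limma). NMRK1, the nicotinamide riboside kinase, rose from 1.28 ± 0.230 to 2.77 ± 0.0760 FPKM, with a log2 fold change of 0.73 that was 1.13 with voom. NADSYN1, the NAD+ synthetase, rose by 0.25 on the log2 scale, but its adjusted p (limma) was 0.057 without PD replicate 2 and 0.054 with upper quartile scaling. NAPRT, which starts the route from nicotinic acid, had a log2 fold change of 0.18 (adjusted p = 0.099, limma), and its adjusted p was 0.046 without DMSO replicate 1 and 0.048 with voom. Of the tryptophan route, TDO2, IDO1, KMO, KYNU and HAAO had at most 0.181 FPKM in any library and were not tested at the filter of 0.5 FPKM. AFMID, of the same route, was tested without a call and had 4.77 ± 0.551 FPKM in DMSO and 5.36 ± 0.368 in PD. Of the 8 genes of NAD(P) repair, transport and nicotinamide removal, 7 were tested and 4 rose, namely NADK2, NAXE, NUDT12 and SLC25A51. NAXE, an epimerase that repairs damaged NAD(P)H, had 50.7 ± 3.46 FPKM in DMSO and 88.0 ± 2.14 in PD. SLC25A51, the mitochondrial NAD+ carrier, had a log2 fold change of 0.37 (adjusted p = 0.017, limma), and 0.30 (adjusted p = 0.051, limma) without DMSO replicate 3. Its call was also lost without the filter on low FPKM (0.054).

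NAD+-consuming enzymes other than sirtuins moved both ways. Of 19 listed, 15 were tested, 4 rose (PARP1, PARP2, PARP4 and PARP16), 4 fell (TIPARP, PARP14, PARP12 and PARP8) and 7 did not pass the test, with a median log2 fold change of -0.01. TIPARP, a mono-ADP-ribosyltransferase induced by the aryl hydrocarbon receptor, fell from 20.5 ± 1.19 to 11.9 ± 0.421 FPKM, that is a log2 fold change of -0.74 (adjusted p = 2.6e-05, limma). PARP14 and PARP12, known as interferon-responsive genes, fell by 0.57 and 0.49 on the log2 scale. PARP1, the main consumer of NAD+ after DNA damage, was the most abundant of the list and rose by 0.10, from 74.3 ± 0.683 to 79.5 ± 1.97 FPKM. This call depended on the scaling, since the log2 fold change of PARP1 was 0.01 (adjusted p = 0.79, limma) with upper quartile scaling and 0.07 (adjusted p = 0.10) with median-of-ratios scaling. It was also lost without DMSO replicate 1 or 2 or PD replicate 2 or 3 (adjusted p of 0.066 to 0.087, limma). The call of PARP2 was lost with either scaling (0.17 and 0.053), with a replicate block (0.053), without the filter on low FPKM (0.069) and without any library but PD replicate 2 (0.075 to 0.11). The NAD+ glycohydrolases CD38 and BST1 had at most 0.0617 FPKM in any library.

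In the network around SIRT1, 3 of 19 tested genes rose and 7 fell, with a median log2 fold change of -0.12. PPRC1 and NRF1, which drive genes of mitochondrial biogenesis, fell by 0.62 and 0.46 on the log2 scale, and TFAM, the mitochondrial transcription factor, fell by 0.26 (adjusted p = 0.025, limma). The call of TFAM was lost without DMSO replicate 1 or 2 or PD replicate 2 or 3 (adjusted p of 0.054 to 0.081, limma) and without the filter on low FPKM (0.071). PPARGC1A, the coactivator that SIRT1 deacetylates, had 1.87 ± 0.184 FPKM in DMSO and 1.66 ± 0.258 in PD and did not pass the test (adjusted p = 0.35, limma). The AMPK subunits diverged, as PRKAG1 rose by 0.43 while PRKAA1 fell by 0.39 and PRKAB2 by 0.18, the last without a call where DMSO replicate 1 or 2 or PD replicate 3 was left out (adjusted p of 0.062 to 0.069, limma). CCAR2, an inhibitor of SIRT1, fell by 0.28, and RPS19BP1, an activator, had a log2 fold change of 0.01 (adjusted p = 0.90, limma) that was -0.07 and -0.02 under the other scalings.

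Of 15 metabolic enzymes known as sirtuin substrates, 11 were tested, and 5 rose and 2 fell. IDH2, a mitochondrial target of SIRT3, rose from 7.23 ± 0.613 to 29.0 ± 1.14 FPKM, and ACSS2, the cytosolic acetyl-CoA synthetase that SIRT1 activates, rose from 8.18 ± 0.245 to 25.0 ± 0.102 FPKM. CPS1, the urea cycle enzyme that SIRT5 acts on, fell from 225 ± 3.45 to 109 ± 2.60 FPKM, that is a log2 fold change of -1.04. These 3 genes were DEGs, with adjusted p of 2.6e-06, 1.3e-06 and 1.6e-06 (limma). Over all tested genes, 58.1% were called and 3.61% were DEGs, and the list was not tested as a set.

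Of 16 genes for the handling or binding of PD and resveratrol, 10 had values, 8 were tested, 2 rose and 2 fell. Without PD replicate 1 there were 2 calls in place of 4. NQO2, a quinone reductase that binds resveratrol, rose from 5.25 ± 0.193 to 8.79 ± 0.246 FPKM, that is a log2 fold change of 0.65 (adjusted p = 3.1e-05, limma). ABCC2, an efflux pump for conjugates, fell by 0.21 on the log2 scale and YARS1, a tRNA synthetase that binds resveratrol, fell by 0.14. The log2 fold change of YARS1 was -0.22 with upper quartile scaling, and its call was lost without DMSO replicate 1 (adjusted p = 0.054, limma) or PD replicate 1 (0.052). SULT1A1, a sulfotransferase, rose by 0.16, but this call (adjusted p = 0.046, limma) was lost with a replicate block (0.085), with either other scaling (0.064 and 0.19), without the filter on low FPKM (0.088), and without any of DMSO replicates 2 and 3 and PD replicates 1, 2 and 3 (0.086 to 0.14). SULT1A1 also has close copies in the genome that can share reads. LCT, a beta-glucosidase, and SULT1E1 had at most 0.0254 FPKM in any library.

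The zinc-dependent histone deacetylases changed in both directions. Of 11 listed, 9 were tested, and 5 rose (HDAC1, HDAC3, HDAC5, HDAC6 and HDAC11) and 3 fell (HDAC2, HDAC4 and HDAC8). Their log2 fold changes ran from -0.32 for HDAC4 to 0.53 for HDAC11, with a median of 0.15, and none was a DEG. HDAC11 had low FPKM (0.844 ± 0.0702 in DMSO and 1.66 ± 0.139 in PD), and its log2 fold change was 0.90 with a pseudocount of 0.1 and 0.97 with voom. HDAC1 lost its call with upper quartile scaling (adjusted p = 0.24, limma) and without DMSO replicate 1 or 3 or PD replicate 2 or 3 (0.054 to 0.074). HDAC6, which like SIRT2 deacetylates tubulin, had 2.67 ± 0.328 FPKM in DMSO and 3.91 ± 0.372 in PD, that is a log2 fold change of 0.42 (adjusted p = 0.005, limma).

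**Figure D4:**
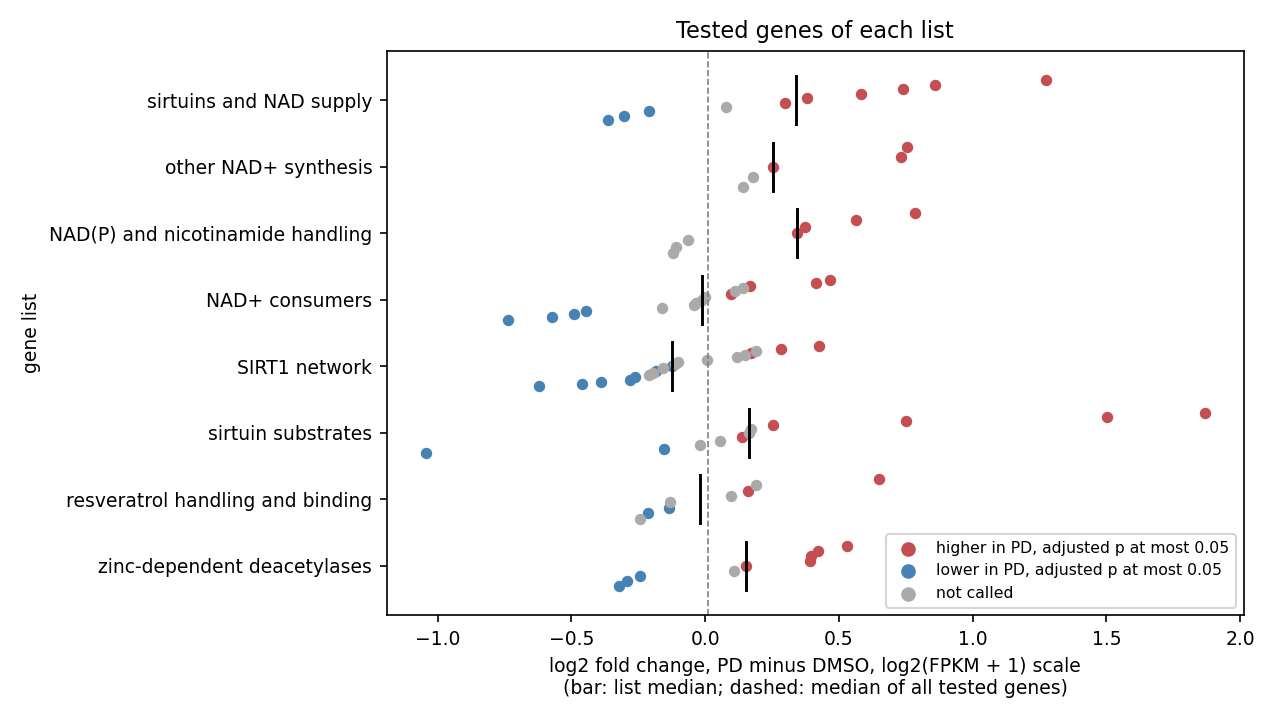
Log2 fold change (PD minus DMSO, on the log2(FPKM + 1) scale) of the tested genes in each list, coloured by whether they were higher (red), lower (blue) or not called (grey) at an adjusted p of at most 0.05. Bars mark list medians, from -0.12 in the SIRT1 network to 0.34 both in NAD(P) handling and in the 10 sirtuin and NAD supply genes, and the dashed line marks the median of all tested genes at 0.01.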

How the data were processed

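RNA-seq libraries from 3 dishes given PD and 3 given DMSO were grouped by the sample titles. The authors selected poly(A) RNA, used HISAT2 for alignment (hg38) and HTSeq 0.6.0 for counting, and deposited FPKM, fragments relative to gene length and library total. Annotation and strand setting are not given in the sources used here. Genes were named with GENCODE release 44, in which 28161 of 28563 identifiers have a symbol.

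The 10 genes and the lists were chosen with earlier results of these data known. All 10 genes are named, with the 3 largest called changes of each list, the 3 profiles nearest to SIRT2, and other list genes that were chosen for their role after their values were seen. PD was compared with DMSO by limma 3.58.1 in R 4.3.3 on log2(FPKM + 1), with an intensity trend and no covariates, over the 14400 genes that averaged 0.5 FPKM or more. Benjamini-Hochberg adjustment was over all of them. Whole fragments were worked back from FPKM for all 28563 genes (tolerance 0.0001), with exon lengths of GENCODE 44 for 12772 of them, for depth and for voom. Promoter windows are from RefSeq. Alternatives were a pseudocount of 0.1, no filter, upper quartile and median-of-ratios scaling, a replicate block, voom on fragments and leaving out each library.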

Additional observations from a re-analysis of the deposited data

How the results depend on the processing

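Over the 12 alternatives, the 10 genes were called as 6 higher in each, with SIRT4 among the 6. They were called as 3 lower except where low FPKM were kept (2) and where a library was left out (1, without PD replicate 3, to 3). DEGs among the 10 genes numbered 1, but 3 under either the 0.1 pseudocount or voom, where DEGs over all genes were 1248 and 1734 instead of 520. Voom called 6 genes of NAD+ synthesis (3 as reported) and 7 of resveratrol handling (4 as reported). For NAD+ synthesis these counts cover different genes, since voom kept genes with at least 10 fragments in 3 libraries or more. KMO and KYNU thus entered voom through their DMSO libraries. What else raised the counts was not tested. Leaving out each library gave 2 to 4 calls in NAD+ synthesis, 2 to 4 in resveratrol handling (2 without PD replicate 1), 511 to 561 DEGs and 1 DEG among the 10 genes. The log2 fold change of SIRT6 ran from -0.0092 to 0.12 when libraries were left out, and that of RPS19BP1 from -0.035 to 0.038, while RPS19BP1 was at -0.073 with upper quartile and -0.016 with median-of-ratios scaling. The 55 genes with a printed change were also followed singly under each alternative. Of these 660 values, 600 kept their direction and side of the threshold, 49 lost their call, 6 gained one and 5, of SIRT6 and RPS19BP1, changed sign without a call. Same-numbered PD and DMSO libraries did not deviate together (correlation of deviations -0.03 to 0.09), and not every library correlated best with its own number. With the replicate number as a block, the counts of the 10 genes were again 6 and 3, genes called higher over the transcriptome were 4414, and of the genes followed singly SULT1A1 and PARP2 lost their calls. Depth limits SIRT4, with 3 to 26 fragments in a library.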
